A study of Nematostella vectensis with 10 samples.

Results

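A total of 86 gene models of the sea anemone *Nematostella vectensis* were lower in the late planula than in the mid-planula both in apical tissue and in the remaining body. They were chosen by their measured levels, in TMM-normalised CPM (counts per 1000000, library sizes being adjusted by trimmed mean of M-values). A gene model was a member where its lowest mid-planula library was at least 1.5 times its highest late planula library and its mean over the 4 mid-planula libraries was at least 5 CPM. The members were 86 of 23333 gene models with at least 15 counts in total (0.369%) and 86 of 25729 in the files. The fall itself was therefore used to choose them, and it is described below without a test.

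The libraries came from larvae, with no genotype or treatment named in the labels, that had been cut into an apical piece with the apical organ, labelled larval aboral tissue, and the remaining larval body. Late planulae were taken at 75 to 85 h post fertilisation, with 3 apical and 3 body libraries. Mid-planulae, labelled planula, were taken at 50 to 60 h, with 2 apical and 2 body libraries. At least 50 larvae, taken from 3 or more batches, were pooled for each sample, so a library is a pool and not an animal, and p-values measure the spread between such pools. The labels give no preparation date, so stage and any difference in preparation between the stages cannot be told apart.

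The planula is the ciliated swimming larva of cnidarians, which later settles with its aboral end and becomes a polyp. Its apical organ sits at the aboral pole, and in *Nematostella* it holds tuft cells in a central spot and larval neurons in a ring around it. Transcripts that decline as a larva matures can belong to early patterning, cell division, maternal stores or larval structures. Which of these the members belong to could not be read from the files, because they name gene models by NVE identifiers alone and none matched the RefSeq gene table that was used here. The members are therefore given by identifier, with no name or function. In bulk tissue, fewer cells of a type and less RNA per cell cannot be told apart.

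The libraries held 14364093 to 27730410 counts. TMM factors were 0.745 to 1.06 in the late and 1.07 to 1.26 in the mid-planula libraries. Replicates differed well beyond sampling noise (chi-square 31.3 to 107 times its degrees of freedom), so no library was a repeat of another. The tissue labels went with the levels of tissue markers. The study had selected a set of apical genes from its own comparison of these tissues, so the difference was partly set in advance. These markers do not bear on the stage labels. The 8 apical spot markers summed to 871 to 1292 CPM in late apical and 44.6 to 55.7 CPM in late body libraries, and to 952 to 1145 CPM in mid apical and 68.7 to 72.5 CPM in mid body libraries. The 4 markers of gland/secretory-cell type 4, a body cell type, summed to 6.64 to 9.72 CPM in late apical and 1734 to 3340 CPM in late body libraries, and to 7.49 to 25.3 CPM in mid apical and 1183 to 1597 CPM in mid body libraries.

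The members were mostly of moderate level in the mid-planula and kept a median of 36.8% of it in the late planula. Mean late planula levels ran between 0.287 and 199 CPM with a median of 9.78, and mean mid-planula levels between 5.06 and 574 CPM with a median of 26.0. The late mean was 3.66% to 55.9% of the mid-planula mean, with quartiles of 32.4% and 40.5%. It lay under 50% in 83 members and under 25% in 5. Most members thus fell by similar proportions, and few were lost from the late planula. The fold of the rule limits how high the late share can be, so this range was partly set in advance. Every member had at least 1 count in each of the 10 libraries, and 1 member was at or under 3 counts in a late library.

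The size of the fall varied little with level. The 10 members with at least 100 CPM in the mid-planula had late levels of 31.0% to 44.5% of it (median 39.4%). The 57 members at 10 to 100 CPM had a median of 37.7%, and the 19 members at 5 to 10 CPM had a median of 32.9% and the widest range, 3.66% to 48.0%. The 10 highest members held 53.1% of the summed mid-planula CPM of the 86.

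The summed level of the members separated the stages in each tissue, as the choice of members requires. It was 2005, 1398 and 1379 CPM in the late apical libraries, against 4379 and 3973 CPM in the mid apical libraries. In the body it was 2002, 1930 and 1544 CPM in the late planula, against 4446 and 5038 CPM in the mid-planula. The late sum was 38.2% of the mid-planula sum for apical and 38.5% for body libraries. The rule asks for a fall across the libraries of both tissues, so this likeness was partly set by the choice of members. As a share of raw counts, the members held 0.157% ± 0.0353 in the late planula (SD, n = 6) and 0.518% ± 0.0634 in the mid-planula (SD, n = 4). This share divides by library totals, under which the median tested gene model also moved, by -0.31 on the log2 scale (late minus mid).

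**Figure D1:**
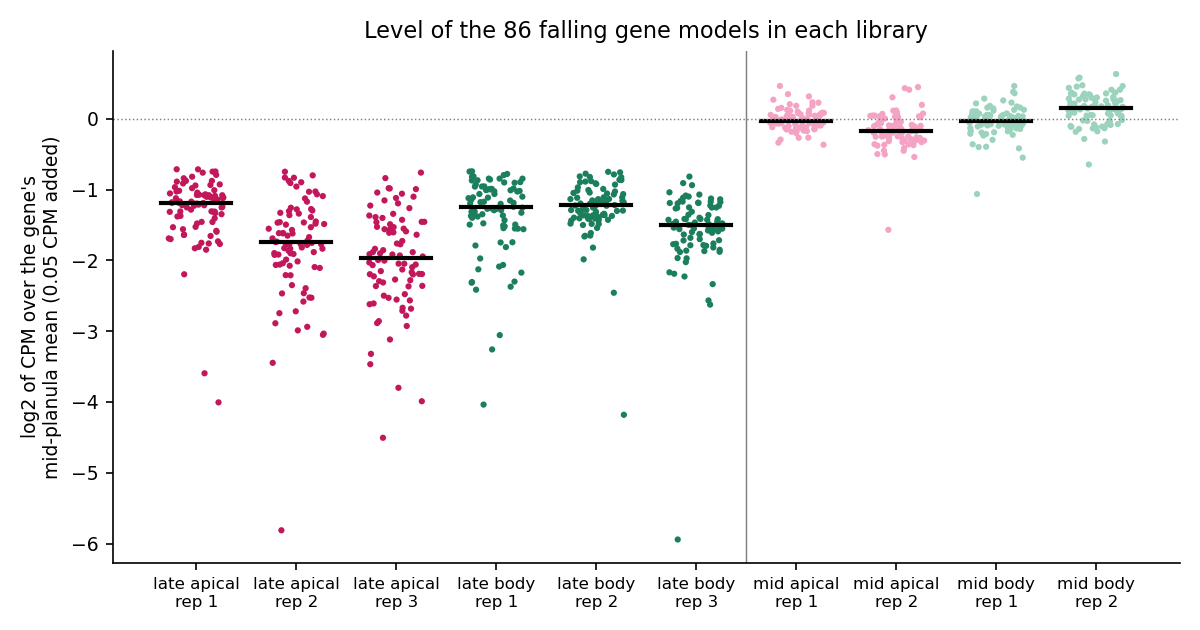
Each point is 1 of the 86 members in 1 library, as the log2 of its CPM over its own mean in the 4 mid-planula libraries (0.05 CPM added to both), and black bars are medians over members. The 6 late planula libraries lie below the 4 mid-planula libraries by the choice of members, and late apical replicates 2 and 3 have the lowest medians.

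The late planula libraries did not hold the members at the same level. Relative to each member's mean over the late libraries, the median log2 difference was 0.22, -0.27 and -0.45 in late apical replicates 1, 2 and 3, and 0.20, 0.20 and -0.06 in late body replicates 1, 2 and 3. Late apical replicate 1 thus stood nearer to the mid-planula than the other late apical libraries. For all gene models with at least 5 CPM in the mid-planula, the same medians were between -0.07 and -0.01. Late apical replicate 1 also had the highest sum of the 4 apical ring markers, at 3356 CPM, against 1165 and 1789 CPM in the other late apical libraries, and the part of this in the members' levels was not tested. The highest late value of a member came from late apical replicate 1, late body replicate 1 or late body replicate 2 in 77 of 86 members. The lowest mid-planula value came from mid apical replicate 2, the library with the fewest counts, in 47.

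**Figure D2:**
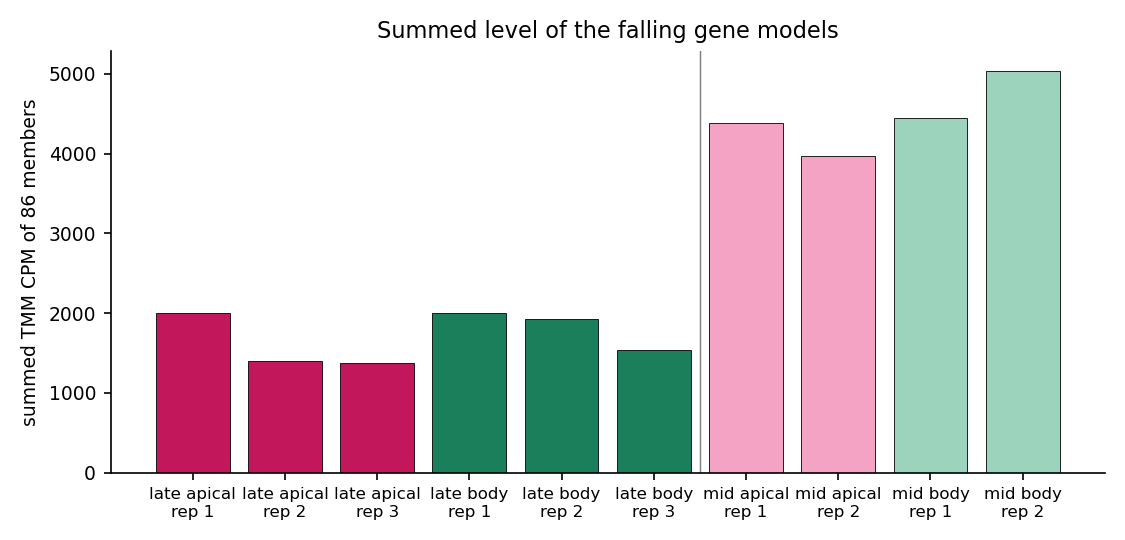
Bars give the summed TMM CPM of the 86 members in each of the 10 libraries, starting at 0, with late planula left of mid-planula. The late sums lie between 1379 and 2005 CPM and the mid-planula sums between 3973 and 5038 CPM.

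These libraries set how many gene models passed. Leaving out mid apical replicate 2 gave 203 members, leaving out late body replicate 1 gave 159 and leaving out late body replicate 2 gave 132, while without any other single library there were 76 to 111. With library totals in place of TMM there were 293, which included all 86. Under that scaling the median gene moved by -0.31 on the log2 scale (late minus mid) and the members by -1.77, against 0.03 and -1.43 with TMM. All 86 were lower in the late planula under each of the 4 scalings tried, which their choice from the same counts largely set in advance.

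The members were a subset of the gene models that fell in one tissue. Within the apical tissue alone 480 gene models passed the same fold and level, and within the body alone 436. A total of 178 passed within both, which was 37.1% of the apical and 40.8% of the body set, and 86 of these (48.3%) also kept the gap when each late library was compared with each mid-planula library of either tissue. The mirrored rule, with late over mid, gave 137 rising gene models, with a median ratio of the late to the mid-planula mean of 3.83. For the falling members the median ratio of the mid-planula to the late mean was 2.72.

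The members with the highest mid-planula level kept a large amount of RNA in the late planula. NVE8178, the highest, had 250, 134 and 139 CPM in late apical and 254, 231 and 185 CPM in late body libraries, against 538 and 509 CPM in mid apical and 552 and 699 CPM in mid body libraries. NVE16447 had 193, 166 and 155 CPM in late apical and 191, 206 and 162 CPM in late body libraries, against 441 and 366 CPM in mid apical and 561 and 475 CPM in mid body libraries. For both, the late libraries of the tissues overlapped and the mid-planula values were lower in the apical tissue. NVE4437 had 120, 94.8 and 123 CPM in late apical and 120, 106 and 88.2 CPM in late body libraries, against 246 and 233 CPM in mid apical and 230 and 266 CPM in mid body libraries. Here the tissues overlapped at both stages.

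NVE21390 had 78.7, 50.4 and 34.1 CPM in late apical and 68.2, 74.1 and 67.5 CPM in late body libraries, against 193 and 154 CPM in mid apical and 234 and 220 CPM in mid body libraries. Its late apical values spread more than 2-fold, with replicate 1 the highest. NVE5207 had 104, 55.8 and 74.4 CPM in late apical and 95.4, 76.2 and 52.5 CPM in late body libraries, against 187 and 162 CPM in mid apical and 177 and 242 CPM in mid body libraries. Replicate 1 was the highest late library in each tissue.

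The widest gap between the stages belonged to NVE3277, a member of low level. NVE3277 had 0.441, 0.0903 and 0.297 CPM in late apical and 0.430, 0.384 and 0.0782 CPM in late body libraries, against 9.17 and 2.61 CPM in mid apical and 7.40 and 12.1 CPM in mid body libraries. These were 2 to 8 counts per late library, against 40 to 270 per mid-planula library. It was the only member close to absent from the late planula, and its lowest mid-planula library was 5.91 times its highest late library. In the other members that ratio reached 2.49 at most, with a median of 1.68 over the 86. A total of 8 members had a ratio of at least 2, among them NVE8178, the member with the highest level.

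NVE8018 had 3.64, 3.70 and 2.67 CPM in late apical and 2.29, 4.66 and 3.79 CPM in late body libraries, against 11.6 and 11.7 CPM in mid apical and 12.3 and 14.1 CPM in mid body libraries. NVE13495 had 2.09, 1.49 and 0.594 CPM in late apical and 2.01, 2.59 and 2.03 CPM in late body libraries, against 7.71 and 7.17 CPM in mid apical and 6.96 and 6.43 CPM in mid body libraries. It was one of the 7 members whose mid-planula apical libraries both lay above the body libraries. NVE18453 had 4.79, 2.08 and 2.67 CPM in late apical and 5.45, 4.37 and 4.54 CPM in late body libraries, against 13.7 and 12.4 CPM in mid apical and 12.6 and 17.2 CPM in mid body libraries. NVE12061 had 7.49, 6.996 and 6.90 CPM in late apical and 7.03, 9.32 and 8.13 CPM in late body libraries, against 22.8 and 19.5 CPM in mid apical and 23.8 and 28.7 CPM in mid body libraries. In each of these 4 members the apical and body libraries overlapped in the late planula.

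**Figure D3:**
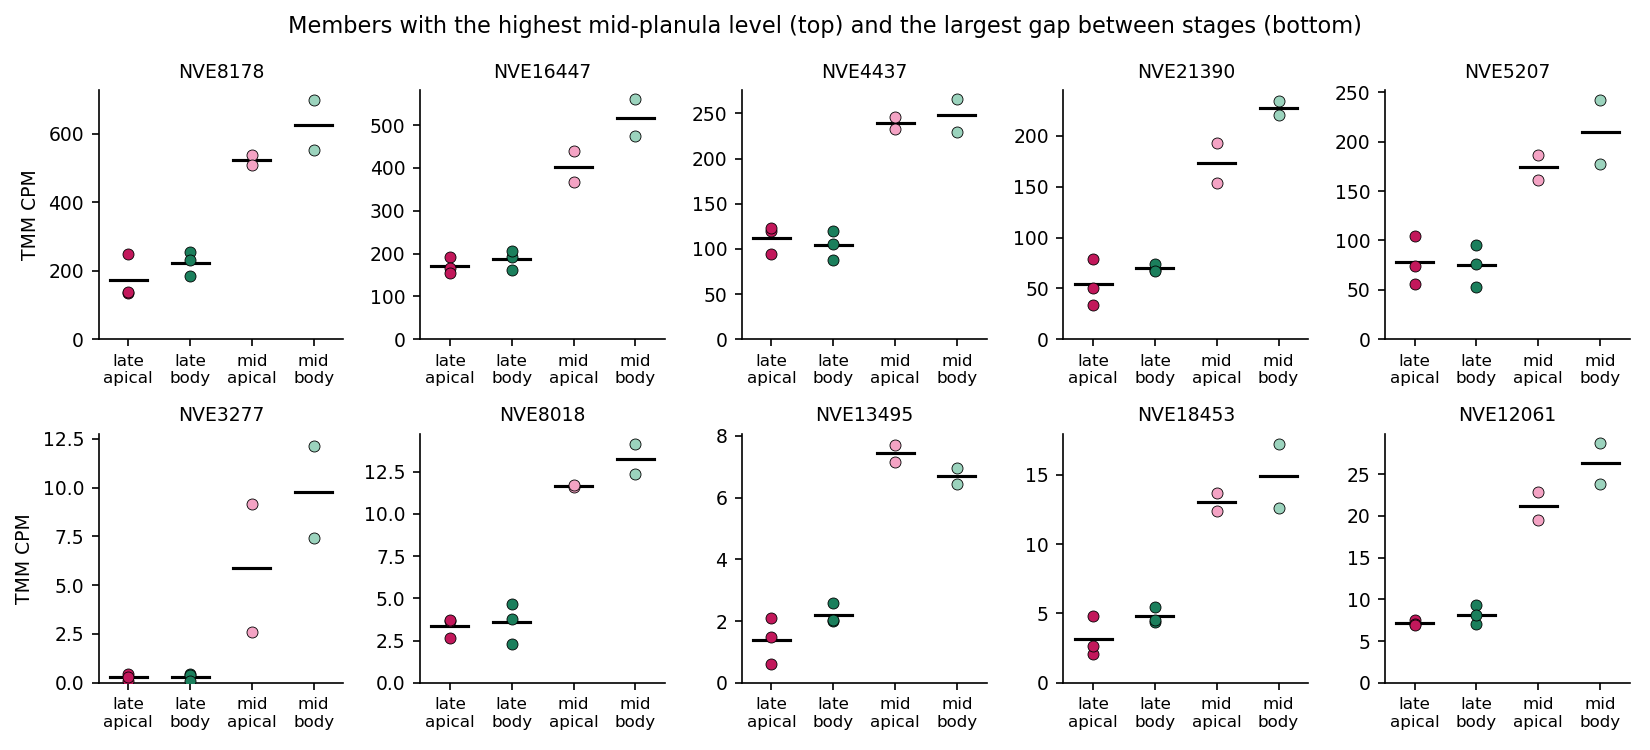
TMM CPM per library (points) and group means (lines) of the 5 members with the highest mid-planula level and the 5 with the largest ratio of the lowest mid-planula to the highest late planula library, each on its own axis from 0. NVE3277 lies at 0.0782 to 0.441 CPM in the late planula and at 2.61 to 12.1 CPM in the mid-planula.

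The threshold of the rule fell within a continuous range of ratios. The members just inside were NVE25609, NVE3145 and NVE6817, whose lowest mid-planula library was 1.503, 1.506 and 1.506 times the highest late library. Just outside were NVE4111, NVE24618 and NVE24968, at 1.498, 1.496 and 1.495 times. NVE6817 had 11.1 to 14.0 CPM over the late libraries, against 21.1 to 25.4 CPM over the mid-planula libraries, and NVE24618 outside had 7.88 to 10.6 against 15.9 to 21.6 CPM. In all, 28 members had a ratio under 1.6. NVE25609 and NVE25610, and NVE9733 and NVE9734, are members with consecutive identifiers, and whether they lie side by side or overlap in the genome was not examined here.

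On the log2 scale the fall was of similar size in the tissues, which the rule partly set by asking for a fall in both. The fitted log2 fold change, late minus mid, had a median of -1.54 in the apical tissue (range -4.44 to -0.79) and of -1.42 in the body (range -5.08 to -0.85), against 0.04 and -0.01 over all tested gene models. It was past -1 in 80 members in the apical tissue and in 82 in the body. The fall was the larger in the apical tissue for 50 members and in the body for 36. All 86 members passed edgeR's expression filter, which left 21683 gene models to test.

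How often an ordinary stage test would call the members is given as a description only, because the rule used this contrast. With edgeR's quasi-likelihood test and an adjusted p-value under 0.05 (Benjamini-Hochberg), 51 of 86 members were called lower in late apical tissue, where 0.922% of all tested gene models were lower and 2.1% differed in either direction. In the body 49 were called lower, where 0.65% of all were lower and 2.64% differed in either direction. There were 62 gene models called lower in both tissues (0.286% of those tested), of which 39 were members. The other 23 had at least 5 CPM in the mid-planula and failed only the fold between single libraries. A total of 25 members were called in neither tissue, so the rule and the test picked partly different gene models.

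**Figure D4:**
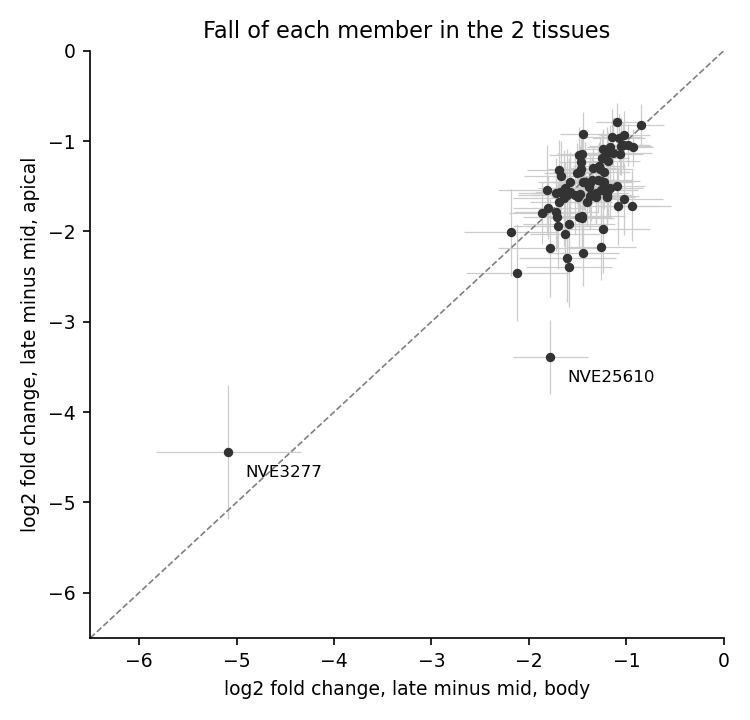
Fitted log2 fold change, late minus mid, of the 86 members in the body (x axis) and the apical tissue (y axis), with standard errors as grey lines and the line of equal change dashed. Most members lie between -2.5 and -0.8 in both tissues, with NVE3277 at -5.08 in the body and -4.44 in the apical tissue, and NVE25610 at -1.78 and -3.39.

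Whether the fall differed between the tissues was tested as the interaction of stage and tissue, late minus mid in the apical tissue less the same in the body. The rule asks for a fall in both tissues, which narrows this difference but does not set its sign. No member passed, with edgeR's quasi-likelihood test calling 0 of 86 and 0.0231% of all tested gene models. The DESeq2 Wald test called 0 members and 0.493% of all, and limma-voom 0 members and 0.00461% of all. At an unadjusted p-value under 0.05, which 4.04% of all reached, there was 1 member, NVE25610, at -1.61 (standard error 0.57, unadjusted p = 0.0139, adjusted p = 0.963, edgeR). With 2 mid-planula libraries per tissue the members' median standard error of this contrast was 0.47, and the members' median difference was -0.06, against 0.06 over all tested gene models.

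The members differed little between the tissues at either stage. In the mid-planula, apical against body, 0 of 86 members were called by edgeR's quasi-likelihood test, where 4.29% of all tested gene models and 5.76% of those with at least 5 CPM in the mid-planula were. The DESeq2 Wald test called 0 members and 6.83% of all, and limma-voom 0 members and 3.81% of all. No member had an unadjusted p-value under 0.05 in edgeR, where 13.9% of all gene models did, and the smallest was 0.057. A large tissue difference would have kept a gene model from meeting the rule, so a low count was partly set by the choice of members. The 137 rising gene models of the mirrored rule, which is limited in the same way, had 2.19% called in the mid-planula.

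Between the tissues of the late planula, edgeR called 2 of 86 members (2.33%), against 10.8% of all tested gene models, and 8 members had an unadjusted p-value under 0.05, as had 22.2% of all. Averaged over the stages 1 member was called, against 14.6% of all. Of gene models with at least 5 CPM in the mid-planula, 13.5% were called in the late planula and 17.9% averaged over the stages. Of the 137 rising gene models, 5.11% and 8.76% were called. Here too a large tissue difference would have kept a gene model from meeting the rule. The low counts were therefore partly set by the choice of members. Both members called in the late planula were lower in the apical tissue, and both separated the late apical from the late body libraries.

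NVE25610 had 0.991, 1.53 and 0.742 CPM in late apical and 3.15, 5.09 and 3.36 CPM in late body libraries. In the mid-planula it had 14.7 and 8.60 CPM in apical and 11.4 and 15.4 CPM in body libraries. The tissues overlapped in the mid-planula and not in the late planula. The late planula log2 fold change, apical minus body, was -1.80 (standard error 0.38, adjusted p = 0.0083, edgeR's quasi-likelihood test), and the mid-planula one was -0.19 (adjusted p = 0.929, edgeR). Averaged over the stages it was -0.996 (standard error 0.28, adjusted p = 0.0319, edgeR). The late planula call held without any 1 library in turn (adjusted p = 0.00679 to 0.0468, edgeR) and was lost with limma-voom (adjusted p = 0.0532). The averaged call was lost without any 1 of 7 libraries (adjusted p = 0.0516 to 0.152, edgeR) and with limma-voom (adjusted p = 0.0577), and held without late apical replicate 2, late body replicate 1 or mid apical replicate 1.

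NVE21939, named after its values had been seen, had 1.98, 1.17 and 1.19 CPM in late apical and 3.73, 3.08 and 3.21 CPM in late body libraries. In the mid-planula it had 6.32 and 6.78 CPM in apical and 7.47 and 8.55 CPM in body libraries, so the apical values were the lower at both stages. The late planula log2 fold change was -1.20 (standard error 0.34, adjusted p = 0.0401, edgeR). It passed the threshold by a small margin. Leaving out any library other than late apical replicate 1 lost the call (adjusted p = 0.0559 to 0.133, edgeR), as did limma-voom (adjusted p = 0.0857) and edgeR with no filter (adjusted p = 0.052). Averaged over the stages it did not pass (-0.74, adjusted p = 0.0782, edgeR).

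Most members had a slightly lower fitted level in the apical tissue. The log2 fold change averaged over the stages, apical minus body, was below 0 in 68 of 86 members (79.1%), against 54.3% of all tested gene models and 48.7% of those with at least 5 CPM in the mid-planula. The members' median was -0.24 (range -0.996 to 0.41), against -0.05 over all and 0.01 over those with at least 5 CPM. The 137 rising gene models of the mirrored rule had a median of -0.17, so a lower apical level was not particular to the falling members. The difference exceeded its own standard error in 45 members and 2 standard errors in 7, and the members' median standard error was 0.23. In the mid-planula both apical libraries lay below both body libraries in 31 members (36.0%), where 24.8% of all tested gene models did, and above them in 7, where 19.7% of all did. In the late planula the 3 apical libraries lay below the 3 body libraries in 12 members (14.0%), where 14.9% of all did, and above them in 0, where 11.8% of all did. These counts are a description, since the members share libraries and are not independent.

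**Figure D5:**
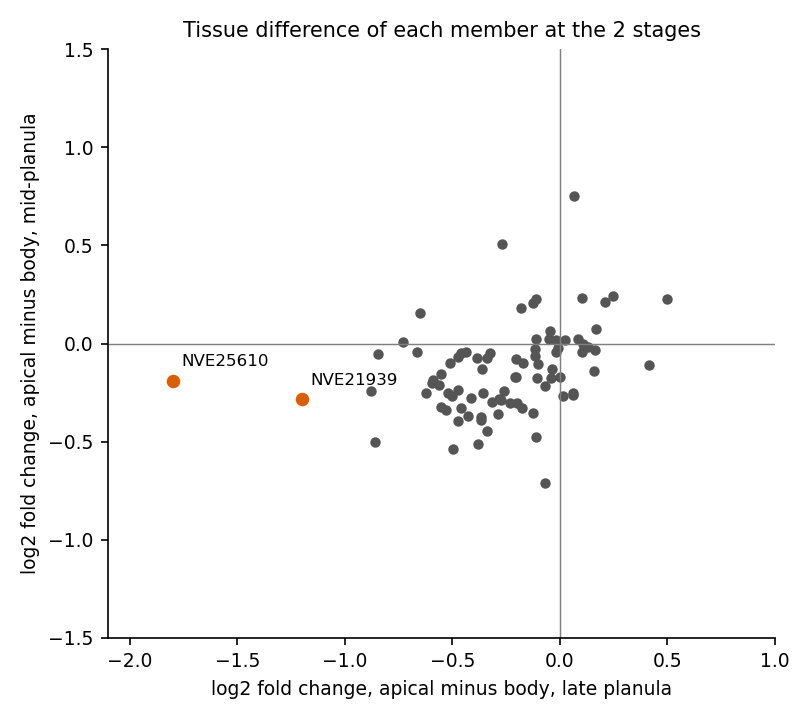
Fitted log2 fold change, apical minus body, of the 86 members in the late planula (x axis) and the mid-planula (y axis). Most points lie within 0.6 of 0 on both axes and more of them below 0 than above, and the 2 members called in the late planula, NVE25610 at -1.80 and NVE21939 at -1.20, are in orange.

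Lists of 37 marker and neuronal genes of this larva were set beside the members. They hold genes that the study's text names or that a report on the whole series names by cell type or role. The lists cover only some cell types of the larva. Of these 37 genes, listed as apical ring, apical spot or gland/secretory markers, neuropeptides, or receptors and transmitter enzymes, 0 were members, where 0.369% of all gene models with enough counts were, a share at which a list of this size would rarely hold one. The rule was applied to these genes too and none met it, so their late against mid-planula test was not independent of it. In that test 0 of 37 were called lower and 1 higher in the apical tissue, and 1 lower and 1 higher in the body (edgeR). Of all tested gene models, 0.922% were lower in the apical tissue and 2.1% differed in either direction. In the body the shares were 0.65% and 2.64%. At such shares a list of 37 would hold few calls or none. The median log2 fold changes of the 37, late minus mid, were 0.03 in both tissues. The apical spot list had a median of -0.02 for apical tissue and -1.42 for the body, where its levels are low, and the neuropeptide list 0.73 and 0.95. The neuropeptide list holds both NVE3755 and NVE3775 as RPamide III, at 0.95 and -0.37 in the body.

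The gene called higher was Nv-LWamide (NVE9858), a neuropeptide precursor. It had 5.73, 7.04 and 12.3 CPM in late apical libraries, against 2.67 and 2.02 CPM in mid apical libraries (log2 fold change 1.81 with a standard error of 0.37, adjusted p = 0.0302 by edgeR). In the body it had 36.7, 42.3 and 38.0 CPM in the late planula, against 15.4 and 10.2 CPM in the mid-planula (log2 fold change 1.61 with a standard error of 0.35, adjusted p = 0.0316 by edgeR). The stages did not overlap in either tissue, in the opposite direction to the members. The gene called lower was the apical spot marker NVE10492, with 0 counts in each late body library, against 8 and 10 counts in the mid body libraries. Its level was thus lower in the late body (adjusted p = 0.0194, edgeR), by 7.27-fold if 3 counts over the late body libraries are taken as the floor. That figure rests on few counts, and would be less certain still if both mates were counted. The apical log2 fold change of NVE10492 was 0.06 (adjusted p = 0.966, edgeR).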

How the data were processed

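RNA of 10 pooled samples of microdissected planulae was measured by mRNA sequencing. By the study's methods, the authors trimmed the reads with Trimmomatic 0.36, mapped them with STAR and counted them on gene models with HTSeq 0.6. The deposited values are counts on each gene model that the authors had not normalised. Strand and pair settings are not given in the sources used here, so overlapping, antisense and near-identical gene models are uncertain. A median of 75.0% of counts from 1 to 20 were even. If both mates were counted, counting error is larger than the counts give. Groups and replicate numbers came from the labels.

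Members were found on TMM CPM (edgeR 4.0.16) of gene models with at least 15 counts. All 10 libraries were fitted as 4 groups of stage and tissue with edgeR's quasi-likelihood test (R 4.3.3, limma 3.58.1), after filterByExpr (minimum count 10, minimum total 15), with Benjamini-Hochberg adjustment over 21683 gene models and a threshold of 0.05. Standard errors are the absolute log2 fold change over the square root of F. The test was checked on simulated data with planted tissue and stage differences. No interaction was planted, so that check cannot show how often one would be found.

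The members and lists were chosen with earlier results of these data known. Gene models named are members in the lists (0), the 5 with the highest mid-planula level, the 5 with the largest ratio of lowest mid to highest late library (late values at no less than 3 counts), up to 4 with the largest and 4 with the smallest tissue difference among those called, any that passed the interaction, and the 3 just inside and 3 just outside the fold. The alternatives were other scalings, folds, levels and filters, halved counts, DESeq2 1.42.0, limma-voom, a replicate block, and each library left out in turn. Deposited files were used for all 10 samples, and no genome was used.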

Additional observations from a re-analysis of the deposited data

How the results depend on the processing

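The number of members, 86, was 76 with DESeq2's size factors (74 shared), 82 with upper-quartile scaling (79 shared), 84 with halved counts and 85 after filterByExpr. It was 293 with library totals, 281 with a lower fold, 8 with a fold of 2, 106 with a mean of at least 1 CPM and 67 with at least 10 CPM. Leaving out each library gave 76 to 203. Members called between the tissues in the late planula, 2 in the main test, numbered 0 with limma-voom, 1 with no filter and 1 to 3 when a library was left out. Averaged over the stages, 1 was called in the main test, 4 with the DESeq2 Wald test, 2 with DESeq2's size factors, 2 with upper-quartile scaling and 0 to 2 when a library was left out. In the mid-planula and the interaction 0 were called under each alternative run. With the replicate number as a replicate block of same-numbered apical and body libraries, 2 were called averaged over the stages and 3 in the late planula. Deviations of same-numbered libraries correlated at 0.235, 0.490 and -0.0918 in late replicates 1, 2 and 3 and at 0.155 in the mid-planula, so the numbers were not taken as pairs. The averaged tissue difference changed sign when a library was left out for NVE4437 (0.03, range -0.0272 to 0.0889), NVE5207 (-0.10, range -0.23 to 0.0194) and NVE6817 (-0.03, range -0.0924 to 0.0369), none of which was called. The share of CPM held by the members was 0.171% in the late and 0.446% in the mid-planula, against 0.157% and 0.518% of raw counts. With 2 libraries per mid-planula tissue the members' median standard error of the tissue difference was 0.36 on the log2 scale, and differences of up to 0.75 in size among the members were not called.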
